A study of Mus musculus with 6 samples.

Results

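The transcripts of 10 secreted signalling genes were compared between neonatal mouse heart muscle cells in which the ligand gene Gdf11 was lowered and control cells. The genes were the activin subunit genes Inhba and Inhbb, the TGF-beta genes Tgfb1, Tgfb2 and Tgfb3, the follistatin genes Fst and Fstl3, their relative Fstl1, and Wfikkn1 and Wfikkn2. They were taken by gene name from the deposited table, where each of the 10 names matched 1 gene of 54532. Ventricular cardiomyocytes came from newborn C57BL/6J pups (age 1 day) and were grown as a primary culture. The shGDF11 group (n = 3) received a short hairpin RNA against Gdf11, an RNA that directs the breakdown of its target transcript. The control group (n = 3) received a hairpin named sh-nc in the sample labels and sh-Vector in the protocol. Both hairpins were given at a multiplicity of infection of 200, and RNA was taken after 48 h. The labels number the samples 1 to 3 without saying whether a number stands for a culture, an animal or a hairpin, and they name neither the promoter of the hairpin nor how many animals were pooled.

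Activins and TGF-betas are dimeric ligands of 1 protein family, to which GDF11 and myostatin also belong. They bind paired type II and type I receptor kinases, which phosphorylate SMAD2 and SMAD3, and these enter the nucleus with SMAD4. TGF-betas are secreted in a latent complex and have to be released from it. Activins and GDF11 are bound by follistatin and FSTL3, which wrap around the ligand and block its receptor sites. WFIKKN1 and WFIKKN2 bind GDF11 and myostatin. In the heart these ligands are known for their roles in fibroblast activation, matrix deposition and hypertrophy.

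The libraries held 15267083 to 16152910 reads in listed genes, recovered from the deposited FPKM values (fragment counts scaled to gene length and to library size). Control replicate 1 stood apart from the other controls. Its reads differed from theirs with a chi-square of 13.6 and 18.3 per degree of freedom, against 5.45 between control replicates 2 and 3 and 3.42 to 3.98 between shGDF11 libraries. For several results that rest on it, the value without it is also given. Gdf11 had 0.614, 0.601 and 0.778 FPKM in the shGDF11 libraries, against 2.76, 2.30 and 2.31 FPKM in the control libraries, and was called lower (log2 fold change -1.34, limma adjusted p = 0.000794). Myh6 and Tnnt2, which mark cardiomyocytes, averaged 1337 and 915.5 FPKM in shGDF11 and 1605 and 831.6 FPKM in control libraries. The cultures also held RNA of other cells. Of all tested genes, 27.6% were called and 13.1% were called lower, and the marker counts that follow are to be read beside these shares. Of 10 endothelial marker genes, 7 were called lower and 0 higher, with a summed level of 54.4 to 57.2 FPKM in shGDF11 and 79.0 to 85.3 FPKM in control libraries. Of 8 macrophage markers tested of 10, 4 were called lower and 0 higher, and the sum of the list was 124.3 to 136.2 FPKM in shGDF11 and 160.6 to 183.3 FPKM in control libraries; the pan-leukocyte gene Ptprc and Cx3cr1 were under the filter. Of 10 fibroblast markers, 0 were called lower and 3 higher, with sums of 390.4 to 407.5 FPKM in shGDF11 and 312.4 to 368.2 FPKM in control libraries. Cardiomyocyte markers were called lower for 5 and higher for 2 of 10, with sums of 6987 to 7228 FPKM in shGDF11 and 8591 to 8869 FPKM in control libraries. The gene Actc1 made up most of that gap, with means of 2766 FPKM in shGDF11 and 4187 FPKM in control. The means of Tnnt2, Tnni3, Myl2 and Ttn were higher in shGDF11, and those of the rest of the list were lower. Smooth muscle and pericyte markers were called lower for 3 and higher for 0 of 10, with sums of 239.1 to 262 FPKM in shGDF11 and 281.5 to 334.6 FPKM in control libraries, and epicardial markers lower for 1 and higher for 3 of 7 tested, with sums of 34.6 to 34.9 FPKM in shGDF11 and 28.9 to 30.6 FPKM in control libraries. With any 1 library left out, 7 endothelial markers were again called lower, while 2 to 4 cardiomyocyte and 1 to 3 smooth muscle markers were called lower. Cardiomyocyte markers called higher were then 0 to 3, with 0 when shGDF11 replicate 2 or 3 was left out. The part of these cells in the results below was not tested, and in bulk RNA fewer cells of a type and less RNA per cell cannot be told apart.

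Of the 10 genes, 4 fell in shGDF11 cells and 0 rose. The falls were those of Fstl3, Inhba, Tgfb1 and Tgfb3, so that both ligands and an antagonist were among them. All 10 genes passed the filter of a mean of at least 0.5 FPKM, and their median log2 fold change was -0.40, against 0.01 over all 15418 tested genes. Levels were tested on log2(FPKM + 0.5) with limma, and a gene was called at an adjusted p under 0.05 over all tested genes. Of all tested genes, 27.6% were called and 13.1% were called lower, so the members' count is to be read beside these shares. For 6 of the 10 genes no shGDF11 value fell among the control values, against 45.8% of all tested genes. The p-values here set the difference between the groups against the scatter of these libraries within a group. Since the labels do not say what a replicate number stands for, that scatter may be technical.

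**Figure D1:**
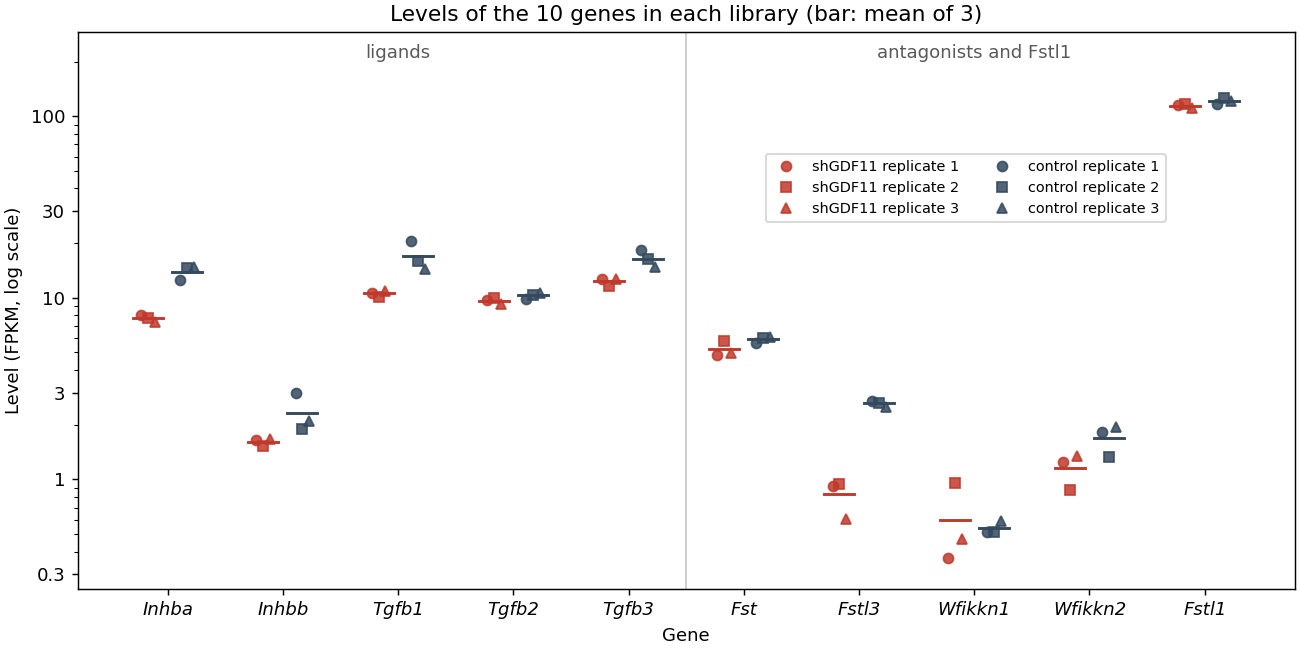
Level of each of the 10 genes in each of the 6 libraries in FPKM on a log scale, with red for shGDF11 and dark blue for control, a marker shape for each replicate number and a bar at the mean of 3. Inhba, Tgfb1, Tgfb3 and Fstl3 are lower in every shGDF11 library than in any control library, Tgfb2 and Fst overlap between the groups, and Fstl1 averages 114.5 FPKM in shGDF11 and 121.1 FPKM in control.

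Inhba encodes the beta A subunit, which forms activin A as a homodimer. In GRCm38, the build of all positions given here, it spans 16011851 to 16031621 of chromosome 13 (plus strand). Its level was 8.06, 7.72 and 7.37 FPKM in the shGDF11 libraries, against 12.5, 14.5 and 14.8 FPKM in the control libraries. Every shGDF11 library was below every control library, and the spread within shGDF11 was small beside the gap. The mean of 7.72 ± 0.342 FPKM in shGDF11 was 55.4% of the 13.9 ± 1.26 FPKM in control (SD, n = 3 each). On the log2 scale it fell by 0.81 ± 0.0823 (SE; limma adjusted p = 0.00104). Control replicate 1 was the lowest of the controls, and without it the log2 fold change was -0.88. By exact permutation (two-sided) p was 0.1, the least that 3 against 3 can reach, as for each of the 6 genes without overlap. Inhba kept its call under all 20 alternatives, with an adjusted p of at most 0.00831.

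Inhbb, the beta B subunit of activin B and inhibin B, spans 119415465 to 119422248 of chromosome 1 (minus strand). It was the scarcer subunit, with 1.64, 1.52 and 1.68 FPKM in the shGDF11 libraries, against 2.98, 1.90 and 2.09 FPKM in the control libraries. Its values did not overlap between the groups, but control replicate 1 lay well above the other controls, and the gene was not called (limma adjusted p = 0.0932). Its log2 fold change was -0.40 (95% interval -0.76 to -0.04), and -0.24 without control replicate 1. The adjusted p ran from 0.052 to 0.223 over 19 alternatives. Beta A made up 83.0%, 83.5% and 81.5% of the summed FPKM of the pair in shGDF11, and 80.7%, 88.4% and 87.6% in control. These shares overlap between the groups. Inha, the alpha subunit that pairs with a beta subunit to form inhibin, was at 6.30 ± 0.796 FPKM in shGDF11 and 6.28 ± 1.01 FPKM in control (limma adjusted p = 0.973, no call). Of 10 relatives of the inhibin and nodal family 5 were tested, and 1, Gdf11 itself, was called. The remaining beta subunit genes Inhbc and Inhbe had 0 to 3 reads per library.

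Tgfb1, the founding TGF-beta gene and a driver of fibroblast activation, spans 25687002 to 25705077 of chromosome 7 (plus strand). Its level was 10.7, 10.1 and 10.97 FPKM in the shGDF11 libraries, against 20.6, 15.9 and 14.5 FPKM in the control libraries. The shGDF11 values lay close together below all controls, while the controls spread widely, with replicate 1 highest. The mean was 10.6 ± 0.456 FPKM in shGDF11, which was 62.2% of the 17.0 ± 3.21 FPKM in control (SD, n = 3 each). This is a log2 fold change of -0.65 ± 0.126 (SE; limma adjusted p = 0.0107) and -0.50 without control replicate 1 (limma adjusted p = 0.00496). The call of Tgfb1 held under all 20 alternatives, with an adjusted p of at most 0.046.

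Tgfb3, which is known for its part in palate and heart cushion development, spans 86056745 to 86079041 of chromosome 12 (minus strand). It had 12.7, 11.7 and 12.6 FPKM in the shGDF11 libraries, against 18.3, 16.3 and 14.7 FPKM in the control libraries. All shGDF11 values lay below all control values, by less than for Tgfb1. The mean of 12.3 ± 0.563 FPKM in shGDF11 was 74.9% of the 16.4 ± 1.798 FPKM in control (SD, n = 3 each), and the log2 fold change was -0.40 ± 0.0888 (SE; limma adjusted p = 0.0172). This was the least firm of the 4 calls. When shGDF11 replicate 2 was left out the limma adjusted p was 0.0695, for shGDF11 replicate 3 it was 0.0517 and for control replicate 2 it was 0.0513, while leaving out control replicate 1 gave 0.0231. Annotated exons of 2 antisense genes lie opposite 12.4% of its exon bases, and those 2 genes had 0 to 3 reads per library.

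Tgfb2, a growth factor of the epicardium and the cardiac cushions, did not move with the other TGF-betas. It spans 186622792 to 186705989 of chromosome 1 (minus strand). Its level was 9.69, 10.02 and 9.22 FPKM in the shGDF11 libraries, against 9.88, 10.4 and 10.6 FPKM in the control libraries. The groups overlapped, with shGDF11 replicate 2 above control replicate 1. Its log2 fold change was -0.09, with a 95% interval of -0.24 to 0.06 (limma adjusted p = 0.322). Summed over the 3 genes, TGF-beta transcripts came to 33.1, 31.8 and 32.8 FPKM in the shGDF11 libraries, against 48.8, 42.7 and 39.8 FPKM in the control libraries. The Tgfb2 share of that sum was 29.3%, 31.5% and 28.1% in shGDF11, against 20.2%, 24.4% and 26.7% in control. The Tgfb1 share was 32.4%, 31.7% and 33.4% in shGDF11, against 42.2%, 37.3% and 36.3% in control. For Tgfb3 the share was 37.9 ± 0.964% in shGDF11 and 37.6 ± 0.663% in control (SD, n = 3 each). Tgfb1 and Tgfb3 were the leading pair in control, with overlapping levels. In shGDF11 the 3 genes stood in the order Tgfb3, Tgfb1, Tgfb2 with no overlap between neighbours. However, Tgfb1 and Tgfb2 were nearly level in shGDF11 replicate 2, at 10.08 and 10.02 FPKM.

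Fstl3, an antagonist that binds activins, myostatin and GDF11, showed the largest fold change of the 10 genes. It spans 79777272 to 79782630 of chromosome 10 (plus strand). It had 0.921, 0.949 and 0.608 FPKM in the shGDF11 libraries, against 2.71, 2.65 and 2.51 FPKM in the control libraries. These levels rest on 37, 38 and 24 reads in shGDF11, against 104, 108 and 100 reads in control. Here the controls were the tight group, and every shGDF11 library was far below them. The mean of 0.826 ± 0.189 FPKM in shGDF11 was 31.5% of the 2.62 ± 0.103 FPKM in control (SD, n = 3 each). Its log2 fold change was -1.24 ± 0.135 (SE; limma adjusted p = 0.00121), and it was -1.68 by limma voom on the recovered reads, which has no added 0.5 FPKM to damp low levels. Fstl3 kept its call under all 19 alternatives that tested it. The annotation places exons of Prss57 opposite 47.3% of its exon bases, and Prss57 itself had 0 to 4 reads per library.

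Fst encodes follistatin, the main secreted antagonist of activin, and spans 114452290 to 114458951 of chromosome 13 (minus strand). It had 4.84, 5.77 and 4.98 FPKM in the shGDF11 libraries, against 5.64, 6.03 and 6.06 FPKM in the control libraries. The groups overlapped through shGDF11 replicate 2. For follistatin the log2 fold change was -0.17, with a 95% interval of -0.37 to 0.03, and the gene was not called (limma adjusted p = 0.172). With the trends on GC content and gene length removed, an alternative chosen after seeing the data, it was called lower at -0.25 (limma adjusted p = 0.0341); the adjusted p was 0.103 to 0.574 under the other alternatives. Follistatin was the more abundant antagonist in both groups. Fstl3 supplied 16.0%, 14.1% and 10.9% of the summed FPKM of the pair in the shGDF11 libraries, against 32.4%, 30.5% and 29.2% in the control libraries.

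Wfikkn1 and Wfikkn2 encode multidomain protease-inhibitor-like proteins that bind GDF11 and myostatin, and both were scarce. Wfikkn2, at 94235956 to 94246005 of chromosome 11, minus strand, had 1.24, 0.878 and 1.34 FPKM in the shGDF11 libraries, against 1.83, 1.33 and 1.94 FPKM in the control libraries. Only shGDF11 replicate 3 and control replicate 2 crossed. The log2 fold change was -0.41, with a 95% interval of -0.81 to -0.01, and the gene was not called (limma adjusted p = 0.115). Wfikkn1, at 25877630 to 25880305 of chromosome 17, minus strand, had 0.369, 0.956 and 0.469 FPKM in the shGDF11 libraries, against 0.514, 0.515 and 0.588 FPKM in the control libraries. Its highest value rests on 31 reads and the others on 12 to 19, and the groups overlapped. The log2 fold change was 0.04, with a 95% interval of -0.49 to 0.58 (limma adjusted p = 0.907), and it was -0.18 without shGDF11 replicate 2.

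Fstl1 carries a follistatin-like domain, but is known as a glycoprotein secreted by heart and stromal cells rather than as an activin trap. It spans 37776873 to 37836514 of chromosome 16 (plus strand) and was by far the most abundant of the 10 genes. Its level was 115.7, 116.8 and 111.0 FPKM in the shGDF11 libraries, against 116.9, 125.5 and 121.0 FPKM in the control libraries. The groups did not overlap, but shGDF11 replicate 2 and control replicate 1 were nearly level. The log2 fold change was -0.08, with a 95% interval of -0.21 to 0.05, and the gene was not called (limma adjusted p = 0.324). After rescaling to TPM, which moved the median of all genes to 0.09, it was 0.01.

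**Figure D2:**
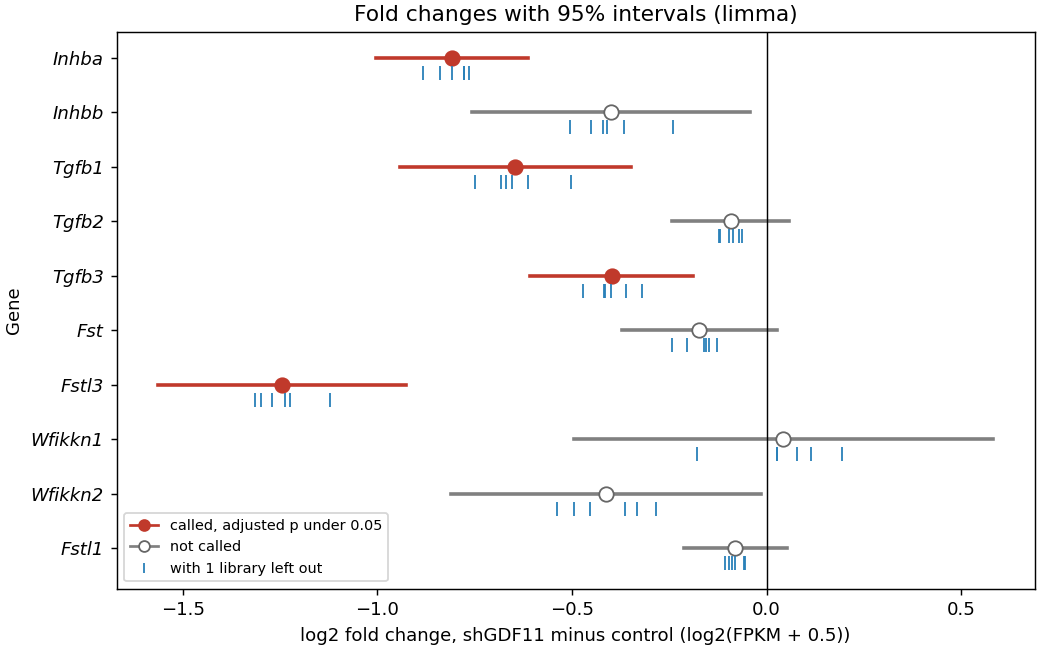
The log2 fold change of each gene, shGDF11 minus control on log2(FPKM + 0.5), with its 95% interval from limma; filled red points were called and open points were not, and blue ticks give the value with 1 library left out. Fstl3 at -1.24, Inhba at -0.81, Tgfb1 at -0.65 and Tgfb3 at -0.40 were called, and the intervals of Tgfb2, Fst, Fstl1 and Wfikkn1 include 0.

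Plain FPKM ratios between 2 of these genes in the same library do not depend on how libraries are scaled to each other, and 6 were compared. Each was tested by an exact two-sided permutation test on log2 ratios with 0.5 FPKM added, and none of the 6 overlapped between the groups. Each p was therefore 0.1, also after Benjamini-Hochberg adjustment over the 6, which is the smallest the design allows. The 6 share genes and are not independent. Of all tested genes, 45.8% did not overlap between the groups, and the share among gene pairs was not computed. The separation is therefore given as a description. The ratio of Inhba to Fst, of an activin subunit to its main antagonist, was 1.66, 1.34 and 1.48 in the shGDF11 libraries, against 2.21, 2.41 and 2.43 in the control libraries. Relative to Fstl3, the other antagonist, Inhba stood higher, at 8.75, 8.14 and 12.1 in the shGDF11 libraries, against 4.61, 5.48 and 5.89 in the control libraries. The 2 ratios thus differed between the groups in opposite directions. On the log2 scale the Inhba to Fstl3 ratio differed by 0.44 with 0.5 FPKM added, by 0.85 with nothing added and by 0.22 with 1 FPKM added, where the exact permutation p was 0.2. Ratios with FPKM added do depend on the scaling, more so where a level is low.

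Among the TGF-betas, Tgfb1 to Tgfb2 was 1.10, 1.01 and 1.19 in the shGDF11 libraries, against 2.09, 1.53 and 1.36 in the control libraries. The difference was -0.55 on the log2 scale and -0.38 without control replicate 1, which held the highest ratio. The ratio of Tgfb1 to Tgfb3 averaged 0.858 ± 0.0122 in shGDF11 and 1.03 ± 0.0848 in control (SD, n = 3 each). That of Tgfb2 to Tgfb3 was 0.765, 0.858 and 0.729 in shGDF11, against 0.540, 0.637 and 0.723 in control, so the groups were barely apart. On the log2 scale, with 0.5 FPKM added, the Tgfb1 to Tgfb3 ratio differed by -0.25, and by -0.18 without control replicate 1. The Tgfb2 to Tgfb3 ratio differed by 0.305, and by 0.199 without that library. Inhba to Fstl1 averaged 0.0674 ± 0.00196 in shGDF11 and 0.115 ± 0.00773 in control (SD, n = 3 each).

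**Figure D3:**
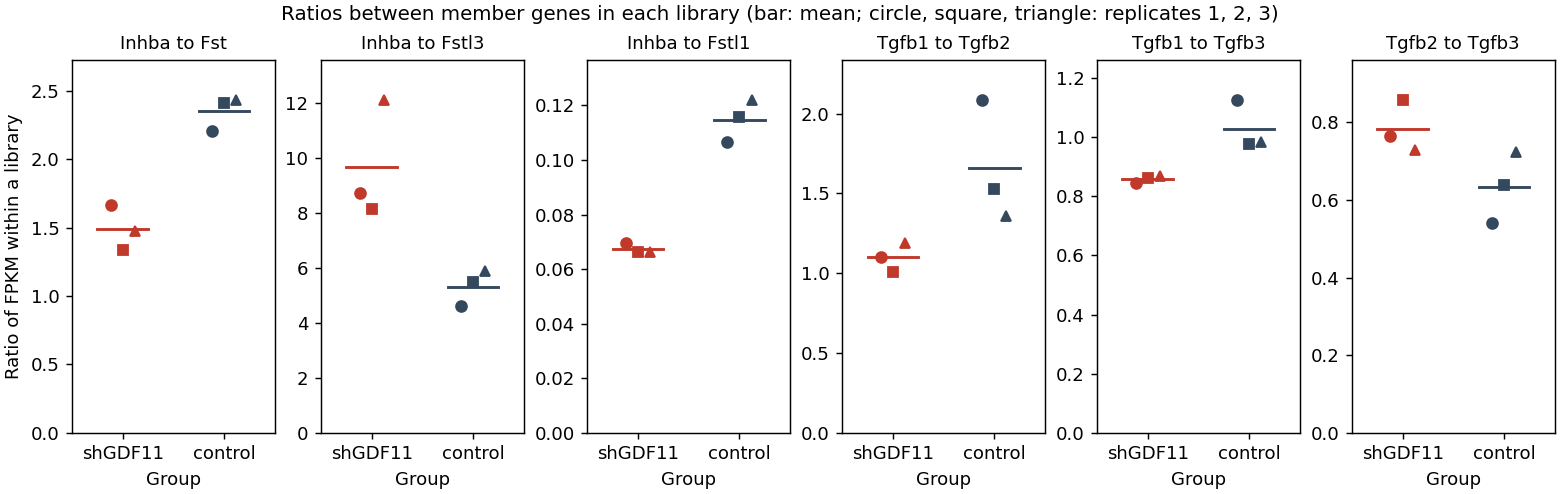
Ratio of the FPKM values of 2 genes within each library for the 6 ratios compared, with shGDF11 in red to the left of control in dark blue and a bar at the mean of 3. Inhba to Fst is lower and Inhba to Fstl3 higher in all 3 shGDF11 libraries, and control replicate 1 holds the highest Tgfb1 to Tgfb2 ratio at 2.09.

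In order of level (FPKM, which is per length), shGDF11 cells had Fstl1, Tgfb3, Tgfb1, Tgfb2, Inhba, Fst and Inhbb, with no overlap between neighbours, and then Wfikkn2, Fstl3 and Wfikkn1, of which neighbours overlapped. Tgfb1 and Tgfb2 were nearly level in shGDF11 replicate 2. Control cells had Fstl1, Tgfb1, Tgfb3, Inhba, Tgfb2, Fst, Fstl3, Inhbb, Wfikkn2 and Wfikkn1. There Tgfb1 overlapped Tgfb3, Tgfb3 overlapped Inhba, Fstl3 overlapped Inhbb and Inhbb overlapped Wfikkn2. Inhba was thus above Tgfb2 in all controls and below it in all shGDF11 libraries, and Fstl3 lay above Wfikkn2 in all controls but overlapped it in shGDF11. Within the control group the 10 genes split by library. Control replicate 1 was the highest control for Tgfb1, Tgfb3, Inhbb and Fstl3 and the lowest for 5 others, among them Inhba, Tgfb2, Fst and Fstl1.

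The 250 bases before the annotated start are shown for the 3 called genes that the RefSeq promoter table of GRCm38.p6 held, with Tgfb2 as the TGF-beta gene that was not called. They lie at chr13:16011601-16011850 for Inhba, chr7:25686752-25687001 for Tgfb1 and chr10:79777024-79777273 for Fstl3, all on the plus strand, and at chr1:186705990-186706239 on the minus strand for Tgfb2. Letters run 5′ to 3′ on the gene's strand. Capitals mark matches, on either strand, to the SMAD box CAGAC, the hypoxia response core ACGTG, the GC box GGGCGG and the TATA box TATAAA; matches may overlap.
Inhba: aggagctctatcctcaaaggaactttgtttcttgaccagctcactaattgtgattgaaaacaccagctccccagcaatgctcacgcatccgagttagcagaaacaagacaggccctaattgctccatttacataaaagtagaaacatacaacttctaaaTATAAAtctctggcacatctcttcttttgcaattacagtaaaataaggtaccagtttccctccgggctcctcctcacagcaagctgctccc
Tgfb1: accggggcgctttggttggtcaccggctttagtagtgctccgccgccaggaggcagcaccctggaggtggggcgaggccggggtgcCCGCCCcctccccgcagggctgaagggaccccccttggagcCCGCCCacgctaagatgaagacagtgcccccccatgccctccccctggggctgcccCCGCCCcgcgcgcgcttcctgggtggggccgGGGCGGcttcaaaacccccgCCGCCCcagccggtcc
Fstl3: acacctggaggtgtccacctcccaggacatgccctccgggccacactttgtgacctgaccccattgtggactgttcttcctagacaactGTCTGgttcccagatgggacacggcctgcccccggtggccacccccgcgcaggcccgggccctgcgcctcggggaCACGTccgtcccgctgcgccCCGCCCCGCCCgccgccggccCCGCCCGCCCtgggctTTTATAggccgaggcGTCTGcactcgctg
Tgfb2: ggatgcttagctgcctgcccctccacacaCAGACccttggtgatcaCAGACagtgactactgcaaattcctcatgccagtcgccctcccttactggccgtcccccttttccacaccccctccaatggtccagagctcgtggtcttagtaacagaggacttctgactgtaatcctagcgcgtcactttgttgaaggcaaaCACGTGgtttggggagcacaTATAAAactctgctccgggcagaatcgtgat
The SMAD box was present in Fstl3 and Tgfb2 (2 matches each) and had no match in Inhba or Tgfb1, and 42.2% of 32851 windows of this length held it. In Fstl3 the matches ended 157 and 10 bases before the start. The hypoxia core was found in Fstl3 and Tgfb2, where a palindrome gives 2 overlapping matches, and in 16.6% of windows. Tgfb1 held 5 GC boxes and Fstl3 held 4, Inhba and Tgfb2 none, against 32.7% of windows with at least 1. A TATA box lay 31 to 26 bases before the start of Tgfb2, 29 to 24 before that of Fstl3 and 91 to 86 before that of Inhba, and 12.4% of windows held this motif. The AP-1 motif TGANTCA, held by 6.75% of windows, was in none of the 4. The 3 called genes shown therefore shared no motif searched here that Tgfb2 lacked, though Tgfb1 and Fstl3 both held the GC box. Of genes not called, Inhbb held 1 GC box and Fstl1 held 2, while Wfikkn1 and Wfikkn2 held 0. For Fstl1, Wfikkn1 and Wfikkn2 the RefSeq start lay 182, 553 and 3426 bases from the start of the gene span given above. Their windows may therefore not lie before the start of the gene as measured. GC content was 43.2% for Inhba, 75.2% for Tgfb1, 71.2% for Fstl3 and 53.6% for Tgfb2.

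Genes whose products process, hold or release these ligands moved both ways. Of 23 genes of latency, processing and activation, all tested, 6 fell and 5 rose. Of all tested genes, 27.6% were called and 13.1% were called lower. The median log2 fold change of the list was -0.11. With any 1 library left out, 4 to 7 fell and 4 to 5 rose, and 4 fell after rescaling to TPM. Itgb3, an integrin subunit that can activate latent TGF-beta with the alpha V chain, had 7.86, 7.74 and 6.996 FPKM in shGDF11, against 16.1, 16.2 and 16.8 FPKM in control (log2 fold change -1.07, limma adjusted p = 0.000278). Thbs1, thrombospondin 1, a matrix activator of latent TGF-beta, averaged 49.8 ± 1.07 FPKM in shGDF11 and 71.2 ± 3.56 FPKM in control (SD, n = 3 each). The proprotein convertase gene Pcsk5, whose enzyme cleaves GDF11 and other precursors of the family, had 2.94, 3.51 and 3.30 FPKM in shGDF11, against 1.19, 1.17 and 1.10 FPKM in control (log2 fold change 1.18, limma adjusted p = 0.000564). Fbn2, a microfibril protein that binds latent complexes, averaged 19.3 ± 0.715 FPKM in shGDF11 and 11.8 ± 1.45 FPKM in control (SD, n = 3 each). All 4 kept their calls under every alternative that tested them.

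Of 9 tested of 10 receptor genes, the type II receptor gene Tgfbr2 and the co-receptor gene Tgfbr3 rose and Eng, the co-receptor endoglin, fell, against 27.6% of all tested genes called. Tgfbr2 had 9.39, 9.48 and 10.13 FPKM in the shGDF11 libraries, against 6.61, 7.99 and 7.77 FPKM in the control libraries. Eng averaged 26.5 ± 0.703 FPKM in shGDF11 and 34.3 ± 1.07 FPKM in control (SD, n = 3 each). The rises were 0 when shGDF11 replicate 1 or 2 was left out. Eng also marks endothelial cells, whose summed markers were lower in shGDF11. Among 13 genes of SMAD2, SMAD3 and their regulators, 4 fell and 0 rose, beside 13.1% of all tested genes called lower. The median was -0.17. The falls were Skil, Smad7, Tgif1 and Smurf1, all repressors or turnover factors of SMAD signalling. Other genes with such roles were not called: Smad6 at -0.17, Smurf2 at -0.20, Ski at 0.03, Ppm1a at 0.04 and Nedd4l at 0.16 (log2 fold change). Skil had 6.84, 6.61 and 6.64 FPKM in shGDF11, against 8.19, 9.65 and 9.75 FPKM in control. The 4 falls were 1 without shGDF11 replicate 2, 2 without shGDF11 replicate 1 and 1 after rescaling to TPM.

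Of 19 transcripts that SMAD2 and SMAD3 are known to induce, 12 fell and 2 rose, beside 13.1% of all tested genes called lower. The median log2 fold change was -0.52. Acta2, which encodes smooth muscle actin, had 367.2, 374.2 and 369.4 FPKM in shGDF11, against 1024, 956.4 and 998.1 FPKM in control (log2 fold change -1.42, limma adjusted p = 0.000116). Every shGDF11 library was far below every control library. Ctgf, a matricellular growth factor gene, and Tgfbi, a matrix protein gene, fell by 1.21 and 0.97 on the log2 scale. The 2 rises were the collagen genes Col3a1 and Col1a2, which are also in the fibroblast marker list. Skil and Smad7 are counted both among these 12 falls and among the 4 of the SMAD regulators. This list was drawn up with earlier results of these data known, so its direction is not independent evidence.

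Among other extracellular antagonists, 2 of the 12 tested of 17 fell and 3 rose, beside 27.6% of all tested genes called. The median was 0.01. Grem1, an antagonist of BMPs, had 0.660, 0.618 and 0.732 FPKM in shGDF11, against 1.596, 1.53 and 1.52 FPKM in control, and Bmper was the other fall. Fmod, fibromodulin, a small proteoglycan that binds TGF-beta, averaged 2.19 ± 0.110 FPKM in shGDF11 and 0.850 ± 0.0497 FPKM in control (SD, n = 3 each). Igsf1 rose by 1.27 and Bgn, biglycan, by 0.34 on the log2 scale. Of 11 tested of 13 other genes with follistatin-like domains, Sparc and Spock3 rose and Spock2 and Sparcl1 fell, beside the same 27.6%. The falls were 0 without shGDF11 replicate 2 or 3 or control replicate 2, and the rises were 1 without shGDF11 replicate 2 or 3. Blocking on replicate number left 0 falls and 2 rises.

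**Figure D4:**
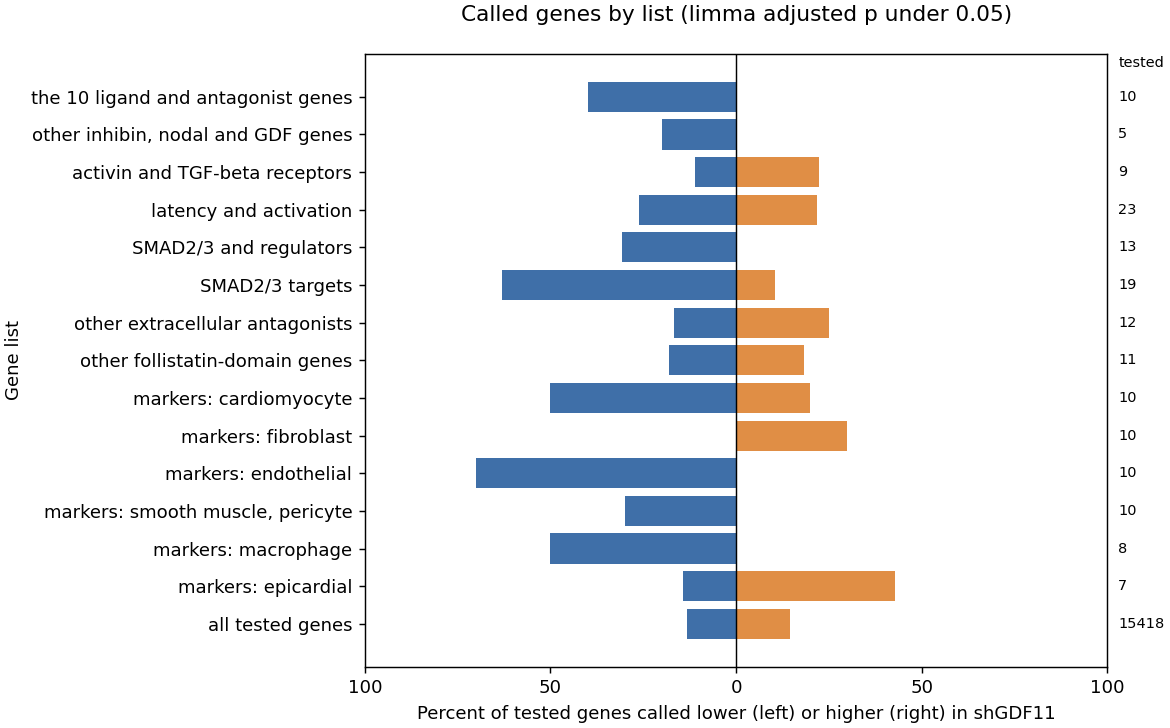
Percent of the tested genes of each list that were called lower (blue, to the left) or higher (orange, to the right) in shGDF11, with the number tested at the right edge. Of the 10 ligand and antagonist genes 4 were lower and 0 higher, against 13.1% of all 15418 genes lower, and 7 of 10 endothelial markers were lower.

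Inhba had the smallest p of the 10 genes. Of 12849 other protein-coding genes tested, those whose level over the 6 libraries was most like that of Inhba were Fem1b, Mtmr9 and Gramd3, with Pearson correlations of 0.9998, 0.9996 and 0.9988 on log2(FPKM + 0.5). The 6 points form 2 groups, and with 27.6% of genes called a high correlation is common, so these are given as a description. All 3 shared with Inhba that control replicate 1 was the lowest control. Fem1b had 14.8, 14.5 and 14.0 FPKM in the shGDF11 libraries, against 19.3, 21.1 and 21.1 FPKM in the control libraries.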

How the data were processed

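Per the file headers, the authors deposited FPKM values for 54532 mouse genes beside each gene's name, position and length. The submitters' processing notes list HISAT2 2.0.5, CASAVA 1.8 and featureCounts 1.5.0-p3, and as builds mm10 and GRCm38, without their roles. The annotation release was, like the strand setting, not given in the sources used here. GENCODE M21 holds 54409 of the identifiers (GRCm38), 53499 with identical coordinates. FPKM times length was a whole multiple of 1 step per library (100% of positive values within 0.05 read), which gave reads; totals were 15267083 to 16152910. Groups follow the treatment label.

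The test was limma 3.58.1 (R 4.3.3; eBayes with trend, two-sided) applied to log2(FPKM + 0.5) of the 15418 genes averaging 0.5 FPKM or more, with Benjamini-Hochberg adjustment over them. Fold changes are shGDF11 minus control and understate changes of low genes. Alternatives were the pseudocount, filter, scaling, variance model, library weights, replicate block, protein-coding genes only, voom on recovered reads and each library left out; removal of GC and length trends was chosen after seeing the data. Members and lists were chosen with earlier results of these data known. Named were all members, up to 4 called genes of each pathway list with the smallest p (Bmper, the collagen genes and the marker genes were named after their values were seen) and 3 genes most like the member with the smallest p. 1 gene that this rule names is not reported here. Unstranded reads of overlapping genes cannot be told apart.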

Additional observations from a re-analysis of the deposited data

How the results depend on the processing

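Over the alternatives run, 4 members were lower and 0 higher except as follows: 3 were lower when shGDF11 replicate 2, shGDF11 replicate 3 or control replicate 2 was left out (Tgfb3 lost) and under a 5 FPKM minimum (Fstl3 below it), and 5 with GC and length trends removed (Fst gained). For every called member, the direction was the same in each alternative that tested it. Among genes not called, Fstl1 had 0.0109 after TPM rescaling and Wfikkn1 -0.18 without shGDF11 replicate 2 (-0.18 to 0.19 over the 6 omissions). Each ratio kept its sign. Over all genes, the 2026 lower were 1072 to 1992 and the 2227 higher 1256 to 2241 with a library left out, 1315 were lower after TPM rescaling, and 1474 were higher under the 5 FPKM minimum. Of called genes 66.2% were higher after TPM rescaling, against 52.4% in the main test. Marker genes called higher were 8, and 5 to 10 with a library left out. With the replicate number as a block, 1655 genes were higher and 1568 lower and the same number of members, 4, were lower. Deviations of same-numbered libraries correlated at 0.0153, 0.0149 and -0.0521, so no effect shared by equal numbers was seen. This cannot tell whether the samples were prepared as pairs. The cause of these changes was not tested. The fewest reads lay behind Wfikkn1 (12 to 31) and Fstl3 (24 to 108).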
